A study of Mus musculus with 16 samples.

Results

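The genes described here are the adipokines and adipocyte genes of an inflammation panel: Adipoq, Retn, Lep, Cfd and Fabp4. They were chosen by gene name, and make up 5 of the 584 genes and 6 of the 648 assays on the panel, Fabp4 having 2 assays. The choice was made with earlier results of these data in view, in which Retn and Fabp4 were among the genes that differed most between DNBS_Nissle and DNBS samples, so the values of that comparison are given as a description with no test.

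Colonic mucosa of mice was the tissue, and its RNA was read by quantitative PCR with TaqMan assays on OpenArray plates, which hold 1 assay per nanolitre well. There were 16 samples, 4 in each of 4 groups. DNBS_CEC mice were given the colitis-inducing hapten dinitrobenzene sulfonic acid (DNBS) into the rectum and the agent that the labels call CEC by mouth. DNBS_Nissle mice received intrarectal DNBS and oral Nissle, which is the name of a probiotic strain of Escherichia coli. DNBS mice received intrarectal DNBS and oral phosphate-buffered saline (PBS), and healthy mice received PBS by both routes. The labels do not spell out CEC and give neither the strain nor the age of the mice. According to the study's description the mice's RNA was pooled first, while the samples are numbered one by one, so a sample may be a mouse or a pool, and the p-values measure the spread between these samples only.

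White fat cells secrete peptide hormones, the adipokines, and store fatty acids as triglyceride under the control of the nuclear receptor Pparg. In the gut, fat cells lie mainly in the mesentery and around the muscle wall, with few in the mucosa itself. Fabp4 is also made by capillary endothelium and by macrophages, so it is less restricted to fat cells than the other genes. A bulk RNA level cannot tell fewer cells of a type from less RNA per cell.

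Ct is the PCR cycle at which fluorescence crosses its threshold, so a lower Ct means more template. Each level below is −ΔCt, the gene's Ct subtracted from the mean Ct of 13 reference genes, on a log2 scale where higher means more RNA and 1 unit is a doubling. A Ct of at most 28 counted as detected. By that limit a sample had 528 to 564 detected assays, and the mean reference Ct lay between 18.7 and 20.1. Molecule numbers behind a Ct are unknown, so no counting interval was computed. Of the 96 Ct values of these genes, 4 were equal to the average of their group's remaining samples, which marks them as filled in, and 5 had 4 or fewer decimals, which marks a possible loss of digits. Healthy 3 and DNBS_Nissle 1 carried 57 and 61 filled values over the whole table, against at most 12 in any other sample.

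The start regions of the genes whose levels moved together over samples are shown as RefSeq gives them for GRCm38.p6, from 250 bases before to 50 bases after the start, all on the plus strand and written 5′ to 3′. The windows are chr16:23146286-23146585 for Adipoq, chr8:3655520-3655819 for Retn, chr10:79890603-79890902 for Cfd and chr6:29059971-29060270 for Lep. Fabp4 is named only. Capitals mark exact matches on either strand to the CCAAT box (CCAAT), to the core of the TATA box (TATAA), to the half-site of nuclear receptors such as Pparg (AGGTCA) or to the palindrome bound by C/EBP factors (TTGCGCAA).
Adipoq: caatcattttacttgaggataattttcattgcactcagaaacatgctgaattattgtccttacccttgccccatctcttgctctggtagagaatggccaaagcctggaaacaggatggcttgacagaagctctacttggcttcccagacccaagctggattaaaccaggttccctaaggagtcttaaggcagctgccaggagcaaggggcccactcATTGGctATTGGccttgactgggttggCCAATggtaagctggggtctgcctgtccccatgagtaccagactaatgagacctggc
Retn: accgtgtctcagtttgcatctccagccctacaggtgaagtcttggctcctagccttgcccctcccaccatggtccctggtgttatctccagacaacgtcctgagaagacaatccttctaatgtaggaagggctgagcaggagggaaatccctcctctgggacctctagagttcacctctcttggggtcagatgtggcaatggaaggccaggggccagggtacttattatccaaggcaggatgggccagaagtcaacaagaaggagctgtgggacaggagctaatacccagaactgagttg
Cfd: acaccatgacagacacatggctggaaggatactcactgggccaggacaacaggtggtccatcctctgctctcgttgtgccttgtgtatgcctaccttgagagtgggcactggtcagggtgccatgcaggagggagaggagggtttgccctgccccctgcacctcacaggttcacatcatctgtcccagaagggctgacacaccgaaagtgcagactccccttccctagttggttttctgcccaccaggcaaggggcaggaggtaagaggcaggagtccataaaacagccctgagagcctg
Lep: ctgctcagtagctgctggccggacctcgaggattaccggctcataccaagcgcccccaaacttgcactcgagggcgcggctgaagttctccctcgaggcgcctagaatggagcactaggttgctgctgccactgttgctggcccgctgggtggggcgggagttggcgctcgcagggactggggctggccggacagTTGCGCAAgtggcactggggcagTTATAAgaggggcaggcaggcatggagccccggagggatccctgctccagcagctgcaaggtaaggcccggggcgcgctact
The Adipoq window held 3 CCAAT matches, a motif found in 37.4% of the 32851 RefSeq windows of this length. The Lep window held 1 match to TTGCGCAA, found in 0.183% of windows, and 2 overlapping matches to TATAA, 1 per strand of the letters TTATAA, found in 24.9% of windows. AGGTCA, found in 16.3% of windows, matched none of the 4, and no motif matched in the Retn or Cfd window. A match is a run of letters and not a measured binding site.

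Adipoq encodes adiponectin, an abundant fat cell hormone that raises insulin sensitivity. The Adipoq level was −6.09, −4.82, −2.08 and −2.03 in DNBS_CEC samples 1, 2, 6 and 8, and −5.50, −3.76, −3.49 and −4.24 in DNBS_Nissle samples 1, 4, 5 and 7. It was −3.68, −2.74, −1.92 and −3.07 in DNBS samples 2, 3, 4 and 5, and −2.04, −0.39, −3.40 and −2.26 in healthy samples 3, 4, 5 and 6. The DNBS_CEC samples split into 1 low and 1 high pair, 16.7-fold apart at the ends, and every DNBS_Nissle sample lay below every healthy sample by a narrow margin. The group means were −3.76 ± 2.03 in DNBS_CEC, −4.25 ± 0.89 in DNBS_Nissle, −2.85 ± 0.73 in DNBS and −2.02 ± 1.24 in healthy samples (SD, n = 4 each).

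Retn encodes resistin, a hormone that mouse fat cells secrete and that lowers insulin sensitivity in mice. The Retn level was −4.57, −6.05, −3.63 and −3.73 in DNBS_CEC samples 1, 2, 6 and 8, and −6.81, −5.20, −4.89 and −6.66 in DNBS_Nissle samples 1, 4, 5 and 7. It was −4.48, −3.64, −3.15 and −4.79 in DNBS samples 2, 3, 4 and 5, and −3.36, −1.38, −5.45 and −3.41 in healthy samples 3, 4, 5 and 6. The DNBS_Nissle samples all lay below the DNBS samples, while healthy samples spanned a 16.8-fold range, with healthy 5 below 2 of the DNBS_Nissle samples. The group means were −4.50 ± 1.12 in DNBS_CEC, −5.89 ± 0.99 in DNBS_Nissle, −4.01 ± 0.75 in DNBS and −3.40 ± 1.66 in healthy samples.

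Lep encodes leptin, the hormone that reports fat stores to the brain, and it ran close to the detection limit. The Lep Ct was 27.6, 30.3, 26.6 and 25.9 in DNBS_CEC samples 1, 2, 6 and 8, and 28.8, 28.8, 29.1 and 28.6 in DNBS_Nissle samples 1, 4, 5 and 7. It was 27.3, 27.7, 28.03 and 27.9 in DNBS samples 2, 3, 4 and 5, and 27.3, 25.3, 27.4 and 28.1 in healthy samples 3, 4, 5 and 6. The values of DNBS_CEC 1, DNBS_Nissle 1 and DNBS_Nissle 4 are filled in, so only 2 of the 4 Lep values in the DNBS_Nissle group are measurements. Among measured values Lep was detected in 2 of 3 DNBS_CEC, 0 of 2 DNBS_Nissle, 3 of 4 DNBS and 3 of 4 healthy samples, with DNBS 4 and healthy 6 just past the limit. With filled values counted as they stand it was 3 of 4 in DNBS_CEC and 0 of 4 in DNBS_Nissle samples.

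Cfd encodes adipsin, or complement factor D, the serine protease of the alternative complement pathway, which mouse fat cells secrete in quantity. The Cfd level was −2.88, −3.26, −0.99 and −0.84 in DNBS_CEC samples 1, 2, 6 and 8, and −3.01, −2.67, −2.16 and −3.79 in DNBS_Nissle samples 1, 4, 5 and 7. It was −2.19, −2.13, −0.87 and −1.81 in DNBS samples 2, 3, 4 and 5, and −0.36, 0.90, −3.30 and −1.13 in healthy samples 3, 4, 5 and 6. Healthy samples held both the highest and, apart from DNBS_Nissle 7, the lowest value, an 18.4-fold range, and the DNBS_Nissle 1 value is filled in. The group means were −1.99 ± 1.25 in DNBS_CEC, −2.91 ± 0.68 in DNBS_Nissle, −1.75 ± 0.61 in DNBS and −0.97 ± 1.76 in healthy samples.

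Fabp4 encodes the fatty acid binding protein of fat cells, which carries fatty acids inside the cell. As the mean of its 2 assays, the Fabp4 level was 1.63, −1.09, 1.51 and 0.82 in DNBS_CEC samples 1, 2, 6 and 8, and −0.20, 0.16, 0.46 and −0.28 in DNBS_Nissle samples 1, 4, 5 and 7. It was 1.25, 1.74, 2.16 and 0.90 in DNBS samples 2, 3, 4 and 5, and 1.31, 2.30, 0.23 and 0.77 in healthy samples 3, 4, 5 and 6. DNBS_Nissle samples were close together, within 1.67-fold, and all lay below the DNBS samples, whereas DNBS_CEC 2 was the lowest of the 16. The group means were 0.71 ± 1.26 in DNBS_CEC, 0.04 ± 0.34 in DNBS_Nissle, 1.51 ± 0.55 in DNBS and 1.15 ± 0.88 in healthy samples. The Ct of one Fabp4 assay exceeded that of the other by 0.84 ± 0.57 cycles (SD, n = 16), between −0.52 and 1.45, and the 2 assays had a Pearson r of 0.85 and a Spearman rho of 0.87 over the 16 samples, as a description.

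**Figure D1:**
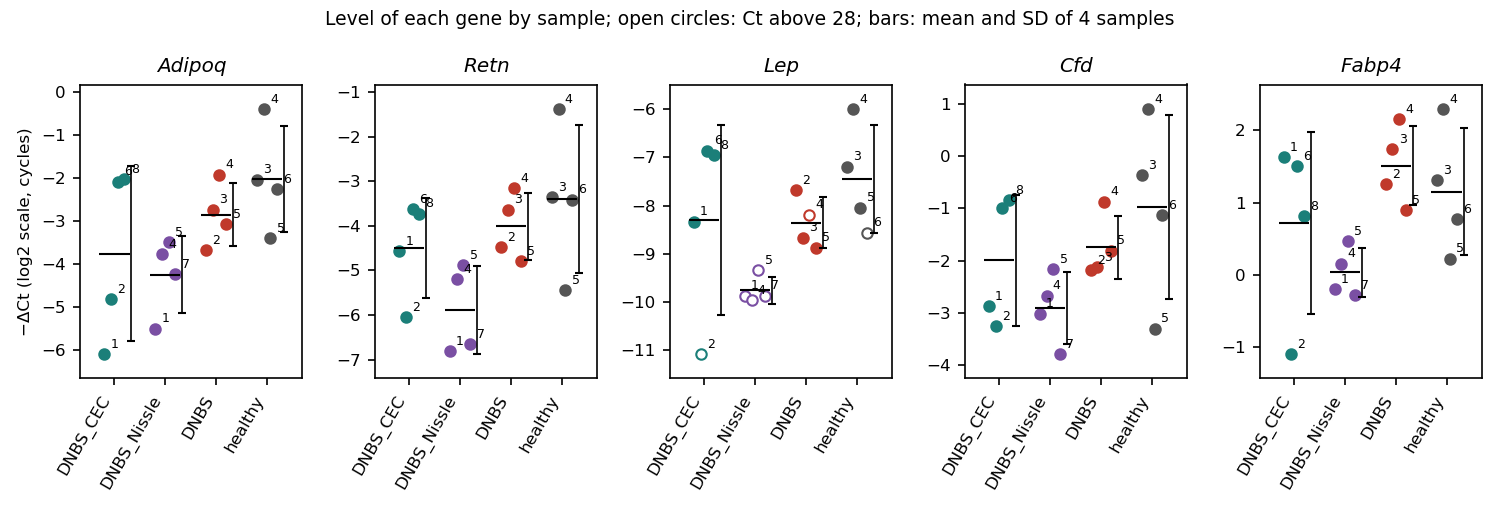
Level of Adipoq, Retn, Lep, Cfd and Fabp4 (−ΔCt, log2 scale) in each sample, with groups on the x axis and the sample number beside each point; lines and bars give the mean and SD of 4 samples, and open circles a Ct above 28. Healthy 4 is the highest point in all 5 panels, and all 4 DNBS_Nissle points for Lep are open.

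By group mean, the order from high to low was healthy, DNBS, DNBS_CEC and DNBS_Nissle for Adipoq, Retn and Cfd. For Fabp4 it was DNBS, healthy, DNBS_CEC and DNBS_Nissle. Over all Lep Ct values, DNBS_CEC samples averaged −8.31 ± 1.97, DNBS_Nissle samples −9.76 ± 0.28, DNBS samples −8.35 ± 0.53 and healthy samples −7.45 ± 1.12, which puts healthy highest and DNBS_Nissle lowest. Every pair of neighbours in these orders overlapped in its samples except DNBS_Nissle and DNBS for Lep, where 2 of the 4 DNBS_Nissle values are filled in.

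The panel offered few checks of the tissue. Krt8, a keratin of simple epithelium, was detected in all samples, with a level of 3.88 ± 0.66 in DNBS_CEC, 3.13 ± 1.63 in DNBS_Nissle, 3.97 ± 0.66 in DNBS and 3.81 ± 0.80 in healthy samples. Of 10 fat cell markers, 6 were on the panel, namely the 5 genes and Pparg, while Plin1, Cidec, Lpl and Lipe were not. All 5 genes therefore amplified in the mucosa, and whether any sample held mesenteric or submucosal fat was not tested.

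Adipoq, Retn and Cfd varied widely between samples of one group. Adipoq had a pooled SD within groups of 1.32, the 16th largest of 412 genes detected in every sample, Retn of 1.18 (31st) and Cfd of 1.17 (34th), against a median of 0.64 over all 412. Fabp4, at 0.83, ranked 125th. Healthy 4 was the highest of the 16 samples for all 5 genes, while healthy 5 ranked 9th for Adipoq, 13th for Retn, 15th for Cfd and 12th for Fabp4 but 6th for Lep. In DNBS_CEC, sample 6 ranked 5th for Adipoq, Retn, Cfd and Fabp4, whereas sample 2 ranked 14th for Adipoq, Retn and Cfd and 16th for Fabp4.

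**Figure D2:**
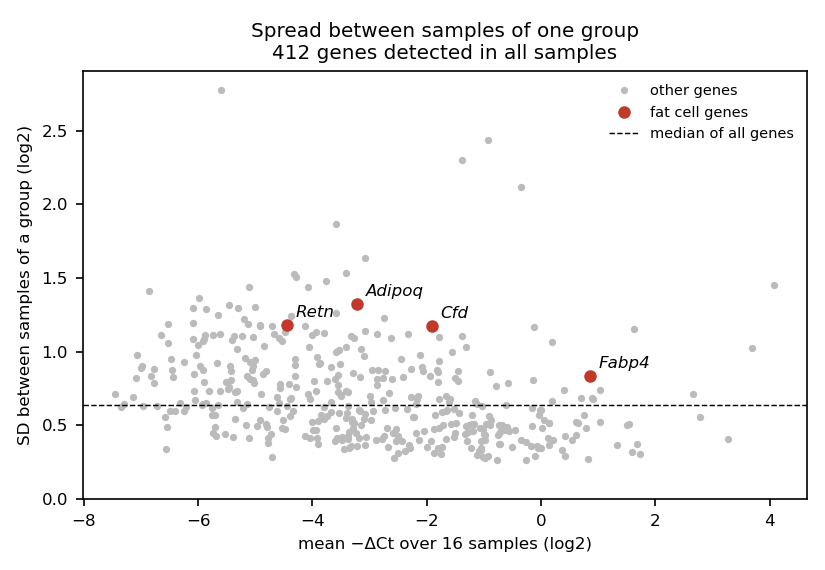
SD between samples of one group (y axis, log2, pooled over the 4 groups) against the mean level of the gene (x axis, −ΔCt) for 412 genes detected in all 16 samples; red points are the fat cell genes and the dashed line is the median of 0.64. Adipoq, Retn and Cfd lie between 1.17 and 1.32, and Fabp4 at 0.83.

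The 4 genes detected in every sample went up and down together from sample to sample. Over the 16 samples Retn and Cfd were the most closely related pair, with a Pearson r of 0.92 (permutation p = 1e-05, the smallest that 100000 permutations give; adjusted p = 6e-05) and a Spearman rho of 0.90 (permutation p = 2e-05). Adipoq and Cfd gave r = 0.87 (permutation p = 3e-05, adjusted 6e-05) and rho = 0.89, and Retn and Fabp4 gave r = 0.86 (permutation p = 2e-05, adjusted 6e-05) and rho = 0.86. Adipoq and Retn gave r = 0.83 (permutation p = 7e-05, adjusted 0.000105) and rho = 0.84. Fabp4 was more loosely tied to Cfd and Adipoq than to Retn, with r = 0.73 and rho = 0.71 for Cfd (permutation p = 0.00159, adjusted 0.00191) and r = 0.59 and rho = 0.63 for Adipoq (permutation p = 0.0162, adjusted 0.0162). These were 6 relations, adjusted by the Benjamini-Hochberg method, and the p-values do not account for the choice of genes with results in view. The permutations ran over all 16 samples without regard to group, so the p-values also count group differences that the genes share.

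The relation was also present within groups, as a description with no test. For deviations from the group means, r was 0.90 for Retn and Cfd, 0.84 for Retn and Fabp4, 0.82 for Adipoq and Cfd, 0.77 for Adipoq and Retn, 0.69 for Cfd and Fabp4 and 0.47 for Adipoq and Fabp4. Without the 2 samples farthest from the median of the first gene of each pair, r was 0.91, 0.83, 0.86, 0.94, 0.66 and 0.81 in the same order of pairs. Adipoq and Fabp4 lost their call without healthy 4, at r = 0.49 with an adjusted permutation p of 0.0671. All levels share one reference value per sample. The 6 pairs had a median r of 0.84, and 83.3% of them exceeded 0.7, against a median of 0.19 and 6.09% over all 84666 pairs of the 412 genes, which share the same reference.

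DNBS_CEC 1 departed from this pattern. It was last of 16 for Adipoq and 4th for Fabp4, so the difference Adipoq minus Fabp4, which can be compared between samples but not read as a ratio of amounts, was −7.71 there, against −5.30 to −2.69 in the other samples. Both Fabp4 assays were high in that sample, with levels of 2.19 and 1.06, although the first is a value with lost digits.

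**Figure D3:**
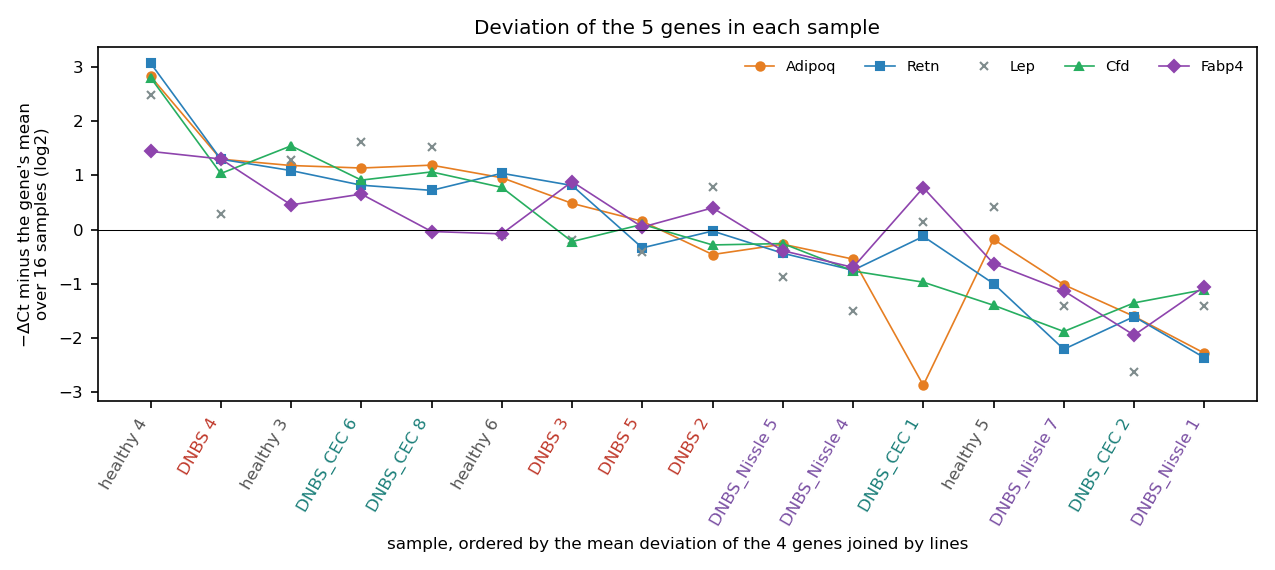
Deviation of each gene's level from its own mean over the 16 samples (y axis, log2), with samples on the x axis ordered by the mean deviation of the 4 genes joined by lines; label colours mark the groups, and crosses show Lep with all its Ct values. Healthy 4 stands at the left, DNBS_Nissle 1 at the right, and Adipoq is far below the other genes in DNBS_CEC 1.

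Among the 411 other genes detected in every sample, those most alike to Adipoq over the 16 samples were Cfd, Retn and Fgf11 (r = 0.78). For Cfd they were Retn, Adipoq and Mgll, which encodes the monoglyceride lipase (r = 0.74). For Retn all 3 were members, Cfd, Fabp4 and Adipoq. For Fabp4 they were Retn, the serpin Serpina3c (r = 0.84) and the LIM domain protein Trip6 (r = 0.80). Lep, with all 16 Ct values kept, had r of 0.71 with Adipoq, 0.81 with Retn, 0.79 with Cfd and 0.79 with Fabp4, as a description. Markers of other cells were set beside the 4 genes in the same way, over 16 samples that span the 4 groups. S100a8, a subunit of the neutrophil protein calprotectin, had r between −0.63 with Adipoq and −0.30 with Fabp4, and Selp, of activated endothelium and platelets, between −0.55 with Adipoq and −0.27 with Fabp4. The growth factor gene Bmp4, from the fibroblast list, had r between 0.32 with Fabp4 and 0.58 with Adipoq, and the macrophage mannose receptor Mrc1 between 0.36 with Fabp4 and 0.55 with Adipoq. Of the 5 macrophage markers on the panel only Mrc1 was set beside the 4 genes, so it does not stand for the list. In DNBS_Nissle minus healthy 3 of the 5 were higher and 2 lower, with Itgam at 1.13 ± 0.78 and Mrc1 at −0.19 ± 0.44 (SE). The leptin receptor Lepr had r between 0.37 with Fabp4 and 0.50 with Retn, Pparg between 0.27 with Fabp4 and 0.50 with Cfd, and Krt8 between 0.08 with Retn and 0.27 with Fabp4.

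The first comparison asked what Nissle-treated colitis looked like beside healthy mucosa, and the 4 fitted genes all had lower means in it, none past the threshold. Retn was 2.49 lower on the log2 scale in DNBS_Nissle samples, or 5.61-fold (SE 0.76, 95% interval −4.09 to −0.88, limma adjusted p = 0.133, unadjusted p = 0.00465). The differences were −2.22 ± 0.84 for Adipoq (SE, adjusted p = 0.214), −1.93 ± 0.75 for Cfd (adjusted p = 0.219) and −1.12 ± 0.56 for Fabp4 (adjusted p = 0.331). None of the 4 passed, where 11 of 457 genes (2.41%) did, all of them higher in DNBS_Nissle. All 4 were lower, with a median difference of −2.08, against −0.09 over the 457 genes, of which 266 were lower. These DNBS_Nissle samples are also those of the comparison with which the genes were chosen, and 1 of the 4 Cfd values in them is filled in. Adipoq was the one gene of the 4 whose samples did not overlap, a pattern shared by 13.8% of the genes tested.

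The call of Retn and Cfd in that comparison depended on which samples and values were kept. The Retn and Cfd values of healthy 5 are the ones with lost digits, and both were low. They stand at Ct 24.79 and 22.65, and a loss among the decimals leaves the whole cycles as they were. Either value would therefore remain the lowest of the healthy samples. Without healthy 5 the differences were −3.17 for Retn (limma adjusted p = 0.0326) and −2.71 for Cfd (adjusted p = 0.0487), both past the threshold. Leaving out only the values of lost digits removes the same healthy 5 values of these genes, so it is no separate check. It gave the same differences, with a limma adjusted p of 0.0231 for Retn and 0.0376 for Cfd. These p-values do not account for the choice of genes with results in view. Retn also passed under quantile normalization with healthy 5 kept, at −2.70 (adjusted p = 0.0472). Leaving out other single samples could also weaken the differences. Over all single samples left out, Retn ran from −3.17 to −1.81 (limma adjusted p between 0.0326 and 0.344). Cfd ran from −2.71 to −1.31 (limma adjusted p between 0.0487 and 0.472).

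Lep could not be fitted there at the limit of 28. Among measured values it was detected in 0 of 2 DNBS_Nissle and 3 of 4 healthy samples (two-sided Fisher's exact test, p = 0.4, where the smallest p that 2 against 4 allows is 0.0667). Counting the 2 filled values as undetected, 0 of 4 against 3 of 4, gave an exact p of 0.143. With a limit of 30 the difference was −2.32 ± 0.52 (SE, limma adjusted p = 0.0251), past the threshold, but 2 of the 4 DNBS_Nissle values are filled in and equal. With filled values left out as well it was −2.16 ± 0.64 (adjusted p = 0.122), and with any Ct accepted it was −2.32 ± 0.77 (adjusted p = 0.121), neither past the threshold.

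Markers of other cells moved in the same samples. Of 6 neutrophil markers on the panel 4 were tested against healthy samples, and all 4 were higher in DNBS_Nissle. Of these, 3 passed (S100a8, S100a9 and the chemokine receptor Il8rb), where 11 of all 457 genes (2.41%) did, all of them higher. The summed linear level of the list ran between 4.48 and 12.1 in DNBS_Nissle and between 0.0317 and 0.0987 in healthy samples. The neutrophil sum is weighted to S100a8 and S100a9, whose mean levels were −0.93 and −1.39 against −4.32 for the marker Ltf. Selp, the adhesion receptor P-selectin of activated endothelium and platelets, rose by 3.26 ± 0.71 (SE, limma adjusted p = 0.0204). The 2 epithelial markers summed to between 4.03 and 19.9 in DNBS_Nissle and between 8.67 and 24.8 in healthy samples, with DNBS_Nissle 4 lowest. That sum is weighted to Krt8, whose mean level was 3.70 against 0.76 for Il18. The 2 markers went opposite ways, with Krt8 at −0.68 ± 0.67 and Il18 at 0.51 ± 0.42 (SE) in DNBS_Nissle minus healthy. The 5 macrophage markers summed to between 0.65 and 1.67 in DNBS_Nissle and between 0.741 and 1.03 in healthy samples. In the other groups the neutrophil sum ran between 0.0761 and 7.27 in DNBS_CEC and between 0.563 and 50.2 in DNBS. No marker of macrophages (5 on the panel), epithelium (2), fibroblasts (1), T cells (2) or B cells (2) passed in any comparison. Of all genes tested, between 0% and 2.41% passed in a given comparison. The part of these cells in the levels of the fat cell genes was not tested.

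Set against DNBS, the samples given Nissle were lower in all 4 fitted genes, and these are the values with which the genes were chosen. The difference was −1.88 for Retn, −1.48 for Fabp4, −1.40 for Adipoq and −1.16 for Cfd, or 3.67-fold, 2.78-fold, 2.63-fold and 2.23-fold lower. DNBS_Nissle and DNBS samples did not overlap for Retn and Fabp4, a pattern seen in 1.05% of the 474 genes. In the same comparison 0 of 474 genes (0%) passed in limma, with 7 at an unadjusted p under 0.05, and 322 genes were lower, with a median of −0.17. Lep was detected in 0 of 2 measured DNBS_Nissle and 3 of 4 DNBS values. Except for DNBS_CEC against healthy, every other comparison shares its DNBS_Nissle or DNBS samples with this one and is not independent of it.

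DNBS set against healthy mucosa compares intrarectal DNBS with intrarectal PBS, both with oral PBS, and no change passed the test for these genes. The difference was −0.83 ± 0.84 for Adipoq, −0.61 ± 0.76 for Retn, −1.33 ± 0.63 for Lep over 3 detected samples a group, −0.78 ± 0.75 for Cfd and 0.36 ± 0.56 for Fabp4 (SE, limma adjusted p between 0.533 and 0.965). None of the 5 passed, where 1 of 457 genes (0.219%) did, the inducible nitric oxide synthase gene Nos2, which is named for being that gene. The 95% interval ran from −2.74 to 0.07 for Lep and from −0.82 to 1.54 for Fabp4. The sign of the Retn difference depended on healthy 4, without which it was 0.0602. The other differences also moved with the highest and the lowest healthy sample. Without healthy 4 they were −0.28 for Adipoq, −0.79 for Lep, −0.15 for Cfd and 0.74 for Fabp4. Without healthy 5 they were −1.29 for Adipoq, −1.55 for Cfd and 0.0519 for Fabp4.

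DNBS_CEC samples were also compared with healthy ones. All 5 genes had lower means in DNBS_CEC, with differences of −1.73 ± 0.84 for Adipoq, −1.10 ± 0.76 for Retn, −0.31 ± 0.63 for Lep over 3 detected samples a group, −1.02 ± 0.75 for Cfd and −0.44 ± 0.56 for Fabp4 (SE, limma adjusted p between 0.891 and 0.957). None passed, and neither did any of the 458 genes tested (0%), with 25 at an unadjusted p under 0.05. Of the 458 genes 194 were lower, with a median difference of 0.08. The Lep fit left out DNBS_CEC 2, which ranked 16th of 16 for Lep. The Adipoq difference rested on DNBS_CEC 1 and 2, which lay below every healthy sample, while samples 6 and 8 lay above 2 and 3 of the healthy ones. Without DNBS_CEC 1 the Adipoq difference was −0.95. Retn was −0.42 without healthy 4 and −1.78 without healthy 5, and Cfd was −0.40 and −1.79 without the same samples. Fabp4 was 0.17 without DNBS_CEC 2, a turned sign. Lep was 0.23 without healthy 4 and 0.17 without the filled value of DNBS_CEC 1.

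Between DNBS_CEC and DNBS, the comparison that asks what CEC changed in colitis, no gene of the 474 tested passed (0%), and 8 had an unadjusted p under 0.05. The differences were −0.91 ± 0.84 for Adipoq, −0.48 ± 0.76 for Retn, 1.03 ± 0.63 for Lep over 3 detected samples a group, −0.24 ± 0.75 for Cfd and −0.80 ± 0.56 for Fabp4 (SE, limma adjusted p = 0.999 for all 5). The intervals were wide, running from −2.69 to 0.88 for Adipoq and from −0.38 to 2.43 for Lep. The Lep fit left out DNBS_CEC 2, which ranked 16th of 16 for Lep, and kept the filled value of DNBS_CEC 1. With all Lep Ct values kept, the group means were nearly equal, at −8.31 in DNBS_CEC and −8.35 in DNBS. Retn turned to 0.0350 without DNBS_CEC 2, and Cfd turned to 0.18 without that sample, to 0.0513 without DNBS_CEC 1 and to 0.0495 without DNBS 4. Adipoq was −0.13 without DNBS_CEC 1, and Fabp4 was −0.19 without DNBS_CEC 2.

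DNBS_CEC samples were higher than DNBS_Nissle samples in all 4 fitted genes without passing the test. The difference was 1.39 ± 0.76 for Retn, 0.92 ± 0.75 for Cfd, 0.68 ± 0.56 for Fabp4 and 0.49 ± 0.84 for Adipoq (SE, limma adjusted p = 0.963 for all 4), with a median of 0.80 against 0.15 over the 471 genes tested. None of the 471 passed (0%), and 20 had an unadjusted p under 0.05. Among measured values Lep was detected in 2 of 3 DNBS_CEC and 0 of 2 DNBS_Nissle samples (two-sided Fisher's exact test, p = 0.4, where the smallest p that 3 against 2 allows is 0.1). With the filled values of DNBS_CEC 1, DNBS_Nissle 1 and DNBS_Nissle 4 counted it was 3 of 4 against 0 of 4, with an exact p of 0.143. Adipoq turned to −0.0667 without DNBS_CEC 6 and to −0.0843 without DNBS_CEC 8. For Retn, 3 of the 4 DNBS_CEC samples lay above every DNBS_Nissle sample, and for Adipoq 2 did.

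**Figure D4:**
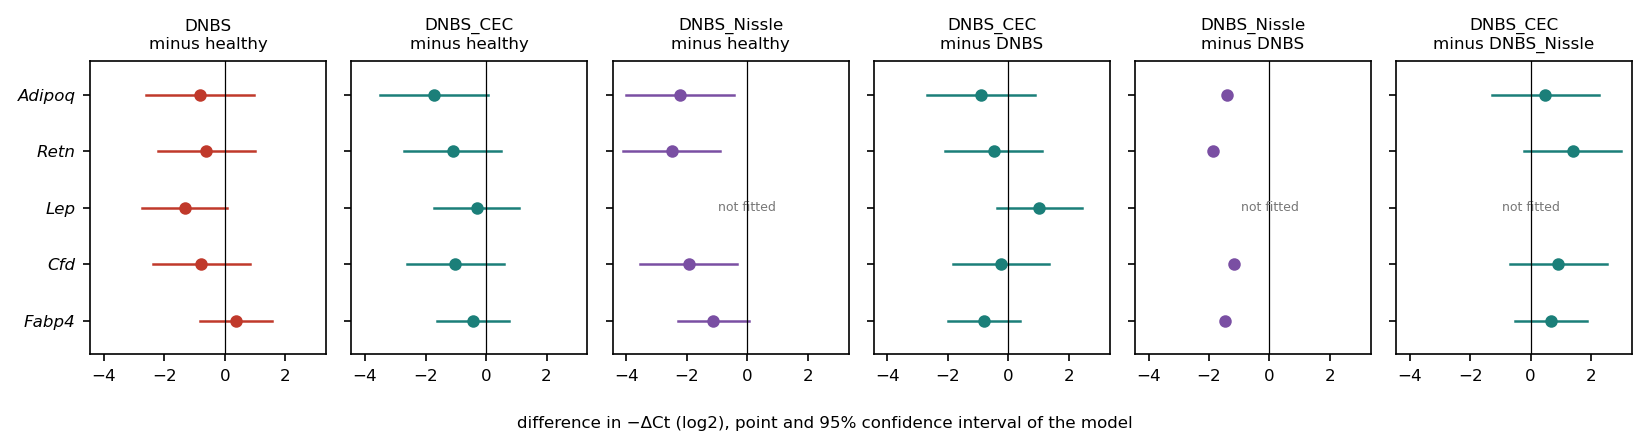
Difference in level (x axis, −ΔCt on the log2 scale, the group named first in each title minus the other) for the 5 genes in the 6 comparisons, with 95% intervals of the limma model; DNBS_Nissle minus DNBS has points only, and Lep could not be fitted where fewer than 3 samples detected it. The points of DNBS_Nissle minus healthy lie between −2.49 and −1.12.

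Other genes of the pathway were few on this panel, and none of those tested passed in any of the 6 comparisons. Between 0% and 2.41% of all genes tested passed in a given comparison. Of 8 adipokine receptors and binding partners 3 were present: Lepr, the leptin receptor, Cmklr1, the chemerin receptor, and Tlr4, the endotoxin receptor, at which resistin has been reported to act. Lepr averaged −3.92 ± 0.14 in DNBS_CEC, −4.43 ± 0.46 in DNBS_Nissle, −3.91 ± 0.79 in DNBS and −3.74 ± 0.18 in healthy samples, and its difference between DNBS_Nissle and healthy samples was −0.69 ± 0.36 (SE, limma adjusted p = 0.351). Of 30 fat cell and lipid genes 8 were present, of which 5 to 7 were detected widely enough to be tested in a given comparison. In DNBS_Nissle minus DNBS 5 of the 6 tested were lower and 1 higher, and Apoe had the lowest p, at −1.47 ± 0.48 (SE, limma adjusted p = 0.997). Apoa1, the main protein of high-density lipoprotein, was −2.32 ± 0.72 in DNBS_CEC minus healthy (adjusted p = 0.370) and −1.99 ± 0.72 in DNBS_Nissle minus healthy (adjusted p = 0.205). Pparg averaged −1.61 ± 0.38 in DNBS_CEC, −1.91 ± 0.27 in DNBS_Nissle, −1.90 ± 0.88 in DNBS and −1.42 ± 0.08 in healthy samples. None of the 8 relatives of Fabp4 and Retn was on the panel.

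Complement genes, the pathway in which Cfd cleaves factor B, were measured more fully. Of 29 listed 21 were on the panel and 14 were tested in each comparison, and 0 passed in any, where 0% to 2.41% of all genes did. In DNBS minus healthy 11 were higher and 3 lower, with a median of 0.42 against 0.12 over all genes tested, of which 184 of 457 were lower. In DNBS_CEC minus healthy 12 were higher and 2 lower, with a median of 0.22 against 0.08 (194 of 458 lower). In DNBS_Nissle minus healthy 3 were higher and 11 lower, with a median of −0.18 against −0.09 (266 of 457 lower). In DNBS_Nissle minus DNBS all 14 were lower, with a median of −0.48 against −0.17 (322 of 474 lower), and in DNBS_CEC minus DNBS 5 were higher and 9 lower, with a median of −0.13 against −0.09 (278 of 474 lower). In DNBS_CEC minus DNBS_Nissle all 14 were higher, with a median of 0.40 against 0.15 (174 of 471 lower). Every group enters 3 of the 6 comparisons. Cfb, the substrate of Cfd, averaged −0.85 ± 0.54 in DNBS_CEC, −1.24 ± 0.47 in DNBS_Nissle, −0.78 ± 0.61 in DNBS and −1.21 ± 0.20 in healthy samples, so it did not share the wide spread of Cfd in healthy mucosa.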

How the data were processed

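The deposited table holds raw cycle thresholds (Ct), recorded as unit "other", of 648 assays in 16 samples, with 40 for no amplification. Per the labels' protocols, RNA was isolated with the mirVana kit and read on the OpenArray NT Cycler. The software that set the thresholds is not given in the sources used here. From these Ct values −ΔCt was computed with 13 reference genes (19 assays), such as Gapdh, Tbp and Gusb, of which some are not reported here by name. Ywhaz had a within-group SD of 3.47 cycles and Rplp2 of 1.01, and a fault in either moves all levels of a sample together. Assays of one gene were averaged over those detected in most samples, and undetected values were left out of the fit. Values equal to the average of their group's remaining samples within 2e-06 cycles (194 of 10368) were read as filled in by the authors, and 532 values with 4 or fewer decimals as having lost the digit pair 40. Both were kept.

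A gene was tested where at least 3 of 4 samples of both groups detected it, 16 control genes were left out, and limma 3.58.1 (lmFit, eBayes, R 4.3.3) was fitted to all 16 samples, with Benjamini-Hochberg adjustment over all genes of each of 6 comparisons and a threshold of 0.05. The fit was checked on simulated data. Detection was compared with Fisher's exact test, and correlations with 100000 permutations (scipy 1.17.1). Named beside the 5 genes are, for each gene detected in all samples, the 3 genes most alike by Pearson r. Also named are some, though not all, of the listed genes that passed or had the lowest p in a comparison. Others were singled out after their values were seen (Krt8, Pparg, Cfb, Selp, S100a8, Mrc1, Bmp4). The genes and lists were chosen with earlier results of these data known. Samples with the same number in 2 groups (10 pairs) had correlations of deviations between −0.47 and 0.31, 4 of them over 0.1. The samples were therefore not treated as paired, though so few samples cannot exclude a pairing. Alternatives covered 6 references or normalizations, the detection limit, edited values, the samples in the fit and leaving out each sample.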

Additional observations from a re-analysis of the deposited data

Results flagged for a closer look

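One value stood apart from the rest of its group among the 20 sets of 4 samples screened, and chance alone marks about 1 in 20. The Lep level of DNBS_Nissle 5 was −9.35, against −9.97 to −9.87 in the other DNBS_Nissle samples, so its gap to the nearest was 0.841 of the range of the group. The values of samples 1 and 4 are filled in with one Ct, and all 4 Ct values are above 28.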

How the results depend on the processing

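Of 663 recomputed member differences 643 kept their direction and side of the threshold. So did 148 of 150 correlations, 118 of 144 counts of genes passing and 8 of 24 detection differences. Many settings could not turn a direction. For a gene detected in all samples the detection settings return the same difference, such as −0.83 for Adipoq in DNBS minus healthy. In DNBS_Nissle minus DNBS the genes were given no test, so only their direction counts there. Where a value moved, the cause was not tested beyond what the setting itself changes. In DNBS against healthy, 0 genes passed in place of 1 with the global mean, quantile normalization, the 3 most stable controls, no detection filter or 2 samples with most filled values left out (healthy 3 and DNBS_Nissle 1, chosen after seeing the data), 5 with Gapdh alone or only the 2 groups in the fit, and 0 to 6 with single samples left out. In DNBS_Nissle against healthy, 4 passed in place of 11 at a limit of Ct 26, 20 with only the 2 groups, 0 without the 2 most filled samples, and 0 to 11 with single samples left out (0 without healthy 3). In DNBS_CEC against healthy it was 0 to 1. With the replicate number as a block, a pairing that the data neither showed nor could exclude, 2 genes passed in DNBS against healthy, 0 in DNBS_Nissle against healthy and 0 in the other comparisons. The DNBS_Nissle minus healthy difference passed for Retn at −2.70 with quantile normalization, and at −3.17 with values of lost digits left out, as it did for Cfd at −2.71, and ranged with single samples left out from −3.17 to −1.81 for Retn and from −2.71 to −1.31 for Cfd. Lep passed there at −2.32 with a limit of Ct 30 and in neither other setting that gave it a value. Lep in DNBS_CEC minus healthy turned to 0.0660 at Ct 30, 0.17 without filled values and 0.54 with both, a setting added after seeing the data, and ranged from −0.79 to 0.23 with single samples left out. Other signs turned when 1 sample was left out: Retn in DNBS minus healthy (−1.29 to 0.0602), Fabp4 in DNBS_CEC minus healthy (−0.75 to 0.17), Retn (−0.77 to 0.0350) and Cfd (−0.63 to 0.18) in DNBS_CEC minus DNBS, and Adipoq in DNBS_CEC minus DNBS_Nissle (−0.0843 to 1.27). Adipoq and Fabp4 had r = 0.53 (adjusted permutation p = 0.0507) without the 2 most filled samples, and 0.49 to 0.84 with single samples left out. The difference in the number of samples detecting Lep was at Ct 26 −1 for DNBS minus healthy, −1 for DNBS_Nissle minus healthy, 1 for DNBS_CEC minus DNBS, 0 for DNBS_Nissle minus DNBS and 1 for DNBS_CEC minus DNBS_Nissle. At Ct 30 it was −1 for DNBS_CEC minus healthy, DNBS or DNBS_Nissle and 0 for the other pairs. With any Ct under 40 it was 0 for every pair. Leaving out filled values, added after seeing the data, gave groups of unequal size, so these differences are not of like counts. They were −1 for DNBS_CEC minus healthy or DNBS (2 of 3 against 3 of 4) and 2 for DNBS_CEC minus DNBS_Nissle (2 of 3 against 0 of 2). For DNBS_Nissle minus healthy or DNBS the difference was −3 (0 of 2 against 3 of 4). Other references moved the median difference of all genes by over 0.1, to −0.15 in DNBS minus healthy with the 3 most stable controls against 0.12, and no member difference changed sign under any of them. Only 4 samples a group, and a Lep Ct near the detection limit, bound what could be resolved.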
